A study of Mus musculus with 16 samples.

Results

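The comparison described here is the LPS effect on heart transcripts pooled over both genotypes: 8 arrays from LPS-treated mice against 8 arrays from saline-treated mice, with genotype as a covariate. It used all 16 arrays of the series. The samples were ventricular myocardium of male CD1 mice aged 14 weeks, which were either knockouts for the adenosine 2A receptor (A2AR, a G protein-coupled receptor through which adenosine raises cyclic AMP) or their wild-type littermates. Each mouse had been given saline or 20 mg/kg of LPS (lipopolysaccharide, the endotoxin of gram-negative bacteria, here from Escherichia coli) into the peritoneum 24 h before the heart was taken, so that there were 4 groups of 4 arrays: wild-type with saline, wild-type with LPS, knockout with saline and knockout with LPS. The mice of all groups shared strain, sex and age, and 4 of the 8 arrays on each side of the comparison came from receptor knockouts. Values are log2 probe set levels, and every change is LPS minus saline on the log2 scale, so that each unit is a factor of 2. A gene is described as having risen or fallen where its limma p was under 0.05 after Benjamini-Hochberg adjustment across the 18193 genes tested.

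Endotoxin binds Toll-like receptor 4 and starts an inflammatory response in which cytokines depress the heart. The heart runs mainly on oxidative phosphorylation: the respiratory chain and ATP synthase are built from many subunits, a few encoded by mitochondrial DNA and translated on mitochondrial ribosomes, the rest made in the cytosol and imported. The proteins of that machinery are abundant and long-lived, and their transcripts belong to the most abundant of heart muscle. Ribosomes, the proteasome and the endoplasmic reticulum set how quickly a cell makes, folds and removes proteins. Such housekeeping genes tend to change by less than 2-fold, and it is in that range that the number of arrays decides what can be called.

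The cardiomyocyte markers (10 genes such as Tnnt2, Tnni3 and Actc1) averaged 13.88 to 13.96 in the saline arrays and 13.52 to 13.79 in the LPS arrays, which is the top of the scale and goes with the labelled tissue. LPS and saline arrays separated on the first principal component (66.3% of the variance). The fourth wild-type LPS array lay at 7.58 on it, where the other LPS arrays lay between 27.6 and 54.0 and the saline arrays between -39.6 and -35.5. The second knockout LPS array stood apart on the second component (8.6% of the variance). The mean of 8 skeletal muscle markers was 6.88 and 8.41 in the first and the fourth wild-type saline arrays and 4.63 to 5.04 in the other 14. In bulk tissue, fewer cells of a type and less RNA per cell cannot be told apart.

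With 8 arrays on each side, 6364 of the 18193 genes were called, which is 35.0%: 2818 were higher after LPS (15.5%) and 3546 lower (19.5%). Among the 11279 genes whose mean lay above that of the median probe set the share was 49.1%. Most changes were moderate. Of the called genes, 5246 changed by less than 1 on the log2 scale (28.8% of all genes), 2236 upwards (12.3%) and 3010 downwards (16.5%), and the median size over all called genes was 0.50. The excess of falls depended on the scaling: after each array was centred on its median 3296 genes were higher and 3156 lower, and the moderate changes were 2680 higher and 2663 lower. Within 1 genotype, 4 LPS arrays against 4 saline arrays called 3798 genes in the wild type (20.9%; 9.28% higher and 11.6% lower) and 4744 in the knockout (26.1%; 11.4% higher and 14.7% lower). The median standard error was 0.0842 for the pooled change and 0.119 within a genotype, a ratio of 1.41.

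What the larger number of arrays resolved lay almost wholly in the range of small changes. Of genes whose pooled change was between 0.25 and 0.5, the 8 against 8 comparison called 79.3%. Of genes with a change of that size within their genotype, the 4 against 4 comparisons called 32.4% (wild type) and 41.3% (knockout). Between 0.5 and 1 the shares were 97.1%, 80.5% and 86.4%, and between 1 and 2 they were 99.3%, 96.2% and 97.9%. Under 0.25 the pooled comparison called 6.03% and the single genotypes 0.563% and 0.827%.

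**Figure D1:**
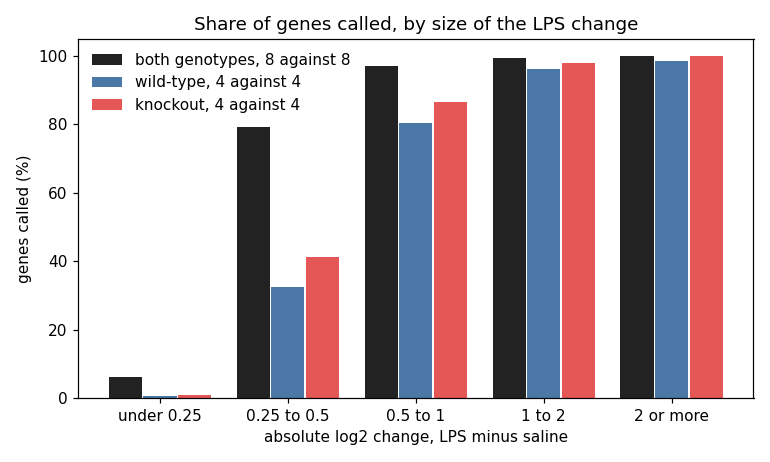
Share of genes called (%, vertical axis) by the size of the absolute log2 change in the same comparison (horizontal axis), for both genotypes together (8 arrays against 8) and for each genotype (4 against 4). The 3 comparisons are nearly level above a change of 1 and differ most between 0.25 and 0.5, where they call 79.3%, 32.4% and 41.3%.

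A total of 1205 genes (6.62%) were called in the pooled comparison and in neither genotype alone, 565 of them higher (3.11%) and 640 lower (3.52%) after LPS. After each array was centred on its median the split was 715 higher and 540 lower. They are called the gained genes below. The pooled and the single-genotype comparisons share their arrays, so a gained gene is one for which more arrays brought the same kind of estimate past the threshold. The median size of a gained change was 0.29 (quartiles 0.23 and 0.37), and 8 gained genes changed by 1 or more. The nearest gene outside the threshold had an adjusted p of 0.0500071 and the last inside it 0.0499562. In 186 gained genes the adjusted p was under 0.01. Just inside the bound of 1 for a moderate change lay a gene with a change of 0.999, and just outside it one with 1.002.

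No gene was called for a difference of the LPS effect between genotypes (the interaction term of the 4-group limma model), where the smallest adjusted p was 0.757 and 813 genes (4.47%) had an unadjusted p under 0.05. This does not show that the genotypes responded alike, but it means that the additive model behind the pooled effect was rejected for 0 genes. Separately, 7014 genes (38.6%) had a 95% confidence interval that lay wholly within a change of 1.2-fold in either direction, and 76 of these were called. For 4891 genes neither held: they were not called, and their interval was too wide to bound the change at 1.2-fold. Of the 7014 bounded genes, 2003 were among the 11279 with a mean above the median probe set. The other bounded genes were dimmer, where a missing change says little.

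The fall of the respiratory chain was shallow and reached nearly every subunit. Of 77 measured subunits of complexes I to IV and ATP synthase, 64 fell, 0 rose, and all 77 changes had a negative sign, also after each array was centred on its median, where 57 fell. The share of genes lower after LPS was 19.5% over all genes. The median change was -0.27, against -0.0083 over all genes, and no subunit fell by as much as 1. Wild-type hearts alone called 39 of the 77 and knockout hearts 50, and in 32 subunits every LPS array lay below every saline array (7.07% of all genes did). Of the 64 falls, 61 were called in each of the 16 fits that left out 1 array.

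Complex I, which takes electrons from NADH, had 30 of 34 subunits lower. The mean over its members was 12.34 to 12.40 in the saline arrays (median 12.37) and 11.96 to 12.21 in the LPS arrays (median 12.03), and the groups did not overlap. Ndufa8, an accessory subunit, ranged from 12.20 to 12.44 in the 8 saline arrays (median 12.34) and 11.27 to 12.00 in the 8 LPS arrays (median 11.77), and fell by 0.55 (SE 0.0815, adjusted p = 3.13e-05). Every LPS array lay below the saline arrays, as was the case for Ndufb10, which fell by 0.53 (SE 0.0576, adjusted p = 9.29e-07), and for Ndufs5, which fell by 0.49 (SE 0.0565, adjusted p = 2.00e-06). At the other end stood Ndufv1, the subunit that binds NADH, with a change of -0.11 (95% interval -0.21 to -0.0024), inside the 1.2-fold bound and not called. Without the fourth wild-type LPS array, which lay above every saline array, the change was -0.14 and called. Ndufv1 was also called with array weights and as the mean of all its probe sets. Another of its probe sets (mean level 12.27) fell by 0.19 and was called, and a further one (mean level 12.57) changed by -0.14 and was not.

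Succinate dehydrogenase and the cytochrome bc1 complex had 10 of 14 members lower. Uqcrfs1, the Rieske iron-sulphur subunit, ranged from 12.79 to 13.01 in the 8 saline arrays (median 12.93) and 12.12 to 12.73 in the 8 LPS arrays (median 12.59). These groups did not overlap, and Uqcrfs1 fell by 0.35 (SE 0.0701, adjusted p = 7.07e-04), with -0.26 in wild-type hearts (adjusted p = 0.0696) and -0.43 in knockout hearts (adjusted p = 0.00337). Sdhc, a membrane anchor of succinate dehydrogenase, fell by 0.39 (SE 0.0835, adjusted p = 0.00118), and Uqcr11 fell by 0.37 (SE 0.0711, adjusted p = 4.10e-04). Both overlapped, through the fourth wild-type LPS array and, for Sdhc, also the fourth knockout LPS array.

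Cytochrome c oxidase had 11 of 13 subunits lower, and ATP synthase 13 of 16. Cox7c fell by 0.75 (SE 0.0934, adjusted p = 5.35e-06) on a probe set far dimmer than those of most subunits (5.71 to 5.97 in the saline arrays), and by 0.48 as the mean of its probe sets, and Cox7a1, the isoform of heart and skeletal muscle, fell by 0.31 (SE 0.0452, adjusted p = 2.97e-05). The smallest falls that could be called were here. Cox6b1, a nuclear-encoded subunit of the oxidase that joins its monomers, ranged from 13.72 to 13.80 in the 8 saline arrays (median 13.76) and 13.58 to 13.76 in the 8 LPS arrays (median 13.63), and 7 of the 8 LPS arrays lay below every saline array, the fourth knockout LPS array being the exception. Cox6b1 fell by 0.11 (SE 0.0326, adjusted p = 0.0118). Its changes were -0.12 in wild-type hearts (adjusted p = 0.103) and -0.11 in knockout hearts (adjusted p = 0.111), of the same size but not called. Cox6c, another nuclear-encoded subunit, was likewise gained, with a pooled change of -0.15 (SE 0.0435, adjusted p = 0.0118).

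In ATP synthase, Atp5e (the epsilon subunit) ranged from 12.51 to 12.66 in the 8 saline arrays (median 12.61) and 12.16 to 12.50 in the 8 LPS arrays (median 12.29) and fell by 0.31 (SE 0.0522, adjusted p = 1.33e-04). Atp5a1, the alpha subunit of the catalytic core, fell by 0.12 (SE 0.0384, adjusted p = 0.0163), with -0.13 in wild-type hearts (adjusted p = 0.134) and -0.12 in knockout hearts (adjusted p = 0.120). Atp5h, a subunit of the peripheral stalk, ranged from 13.59 to 13.71 in the 8 saline arrays (median 13.63) and 13.48 to 13.61 in the 8 LPS arrays (median 13.53), the fourth wild-type LPS array alone lying within the saline range, and fell by 0.11 (SE 0.0342, adjusted p = 0.0188). Together 6 of the 64 called subunits were gained. After centring of the arrays Cox6b1, Atp5a1 and Atp5h kept their sign but were not called. Atp5h was also not called without the intensity trend in the limma model. For 11 of the 64 the whole 95% interval lay within a change of 1.2-fold, so that these falls were called and also bounded, on the probe set used. Other probe sets could differ in size: ones not used fell by 0.19 for Atp5h, 0.51 for Atp5d and 0.35 for Atp5o, each called. For Cox6b1 another changed by -0.12 and was not called.

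The factors that assemble the chain had a median change of -0.40 over 36 genes, 21 lower and 1 higher (0 higher without the third wild-type saline, the third wild-type LPS or the first knockout LPS array, and 2 without the fourth wild-type LPS array). Ttc19, which serves complex III, fell by 0.84 (SE 0.145, adjusted p = 1.65e-04), and Uqcc1, needed for cytochrome b, fell by 0.75 (SE 0.125, adjusted p = 1.22e-04). In both, every LPS array lay below the saline arrays.

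**Figure D2:**
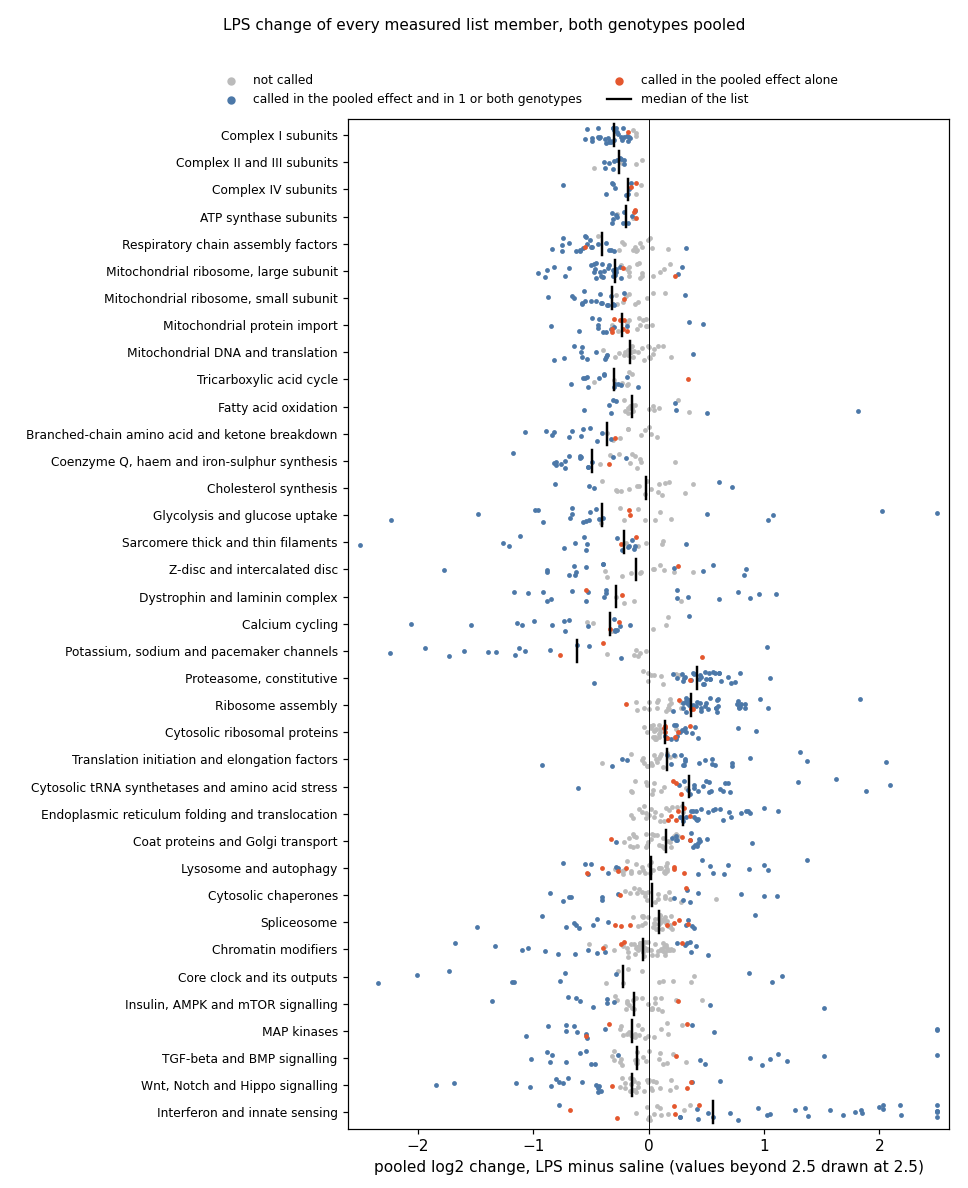
Pooled log2 change (horizontal axis) of every measured member of 37 gene lists, 1 point per gene, with the median of each list as a bar. Subunits of the respiratory chain and ATP synthase all lie left of 0 and close together, cytosolic ribosomal proteins and the proteasome lie mostly right of 0, and lists such as chromatin modifiers are centred near 0.

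The proteins that build these complexes inside the organelle fell as well. Of 76 mitochondrial ribosomal proteins, which translate the few subunits encoded by mitochondrial DNA, 47 fell and 4 rose, with a median change of -0.30. Wild-type hearts alone called 25 lower and knockout hearts 39. The mean of the large subunit's 46 members was 9.33 to 9.57 in the saline arrays (median 9.47) and 8.79 to 9.33 in the LPS arrays (median 9.22), the groups overlapping narrowly. The mean of the small subunit's 30 members was 9.07 to 9.22 in the saline arrays (median 9.14) and 8.52 to 9.01 in the LPS arrays (median 8.81), without overlap. Mrpl45, a large-subunit protein that faces the inner membrane, ranged from 8.68 to 8.90 in the 8 saline arrays (median 8.78) and 7.54 to 8.48 in the 8 LPS arrays (median 7.88), with all LPS arrays below the saline arrays, and fell by 0.88 (SE 0.105, adjusted p = 2.96e-06). Mrps16 fell by 0.64 (SE 0.109, adjusted p = 1.26e-04).

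For the import of proteins into mitochondria many of the calls needed both genotypes. Of 32 measured members of the translocases and their helpers, the pooled comparison had 18 lower and 2 higher, while wild-type hearts alone had 5 lower and knockout hearts 10, and 7 of the 18 falls were gained. The median change was -0.23. Without the first and the fourth wild-type saline arrays, which carried skeletal muscle transcripts, the number lower was 11. Timm21, a subunit of the presequence translocase, fell by 0.85 (SE 0.150, adjusted p = 1.99e-04). Pam16, part of the import motor, ranged from 10.81 to 11.03 in the 8 saline arrays (median 10.98) and 10.50 to 10.93 in the 8 LPS arrays (median 10.79) and fell by 0.21 (SE 0.0634, adjusted p = 0.0140), with -0.17 in wild-type hearts (adjusted p = 0.216) and -0.25 in knockout hearts (adjusted p = 0.0545). Its LPS arrays reached into the saline range in 4 of 8 cases. Grpel2, a nucleotide exchange factor for the mitochondrial Hsp70 of the motor, fell by 0.32 (SE 0.0955, adjusted p = 0.0145), and Timm9, one of the small chaperones of the intermembrane space, fell by 0.31 (SE 0.0960, adjusted p = 0.0157). Timm9 overlapped most, with 7 of 8 LPS arrays inside the saline range, which its first knockout saline array stretched downwards. The exception in direction was Gfer, the sulfhydryl oxidase of the intermembrane space, which rose by 0.48 (SE 0.0744, adjusted p = 5.98e-05) with no overlap.

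Of 38 genes for the copying, transcription and translation of mitochondrial DNA, 11 fell and 1 rose (31.6%, near the 35.0% of all genes). Polrmt, the mitochondrial RNA polymerase, fell by 0.73 (SE 0.0975, adjusted p = 1.11e-05), and Tsfm, a mitochondrial elongation factor, fell by 0.58 (SE 0.0746, adjusted p = 6.88e-06).

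**Figure D3:**
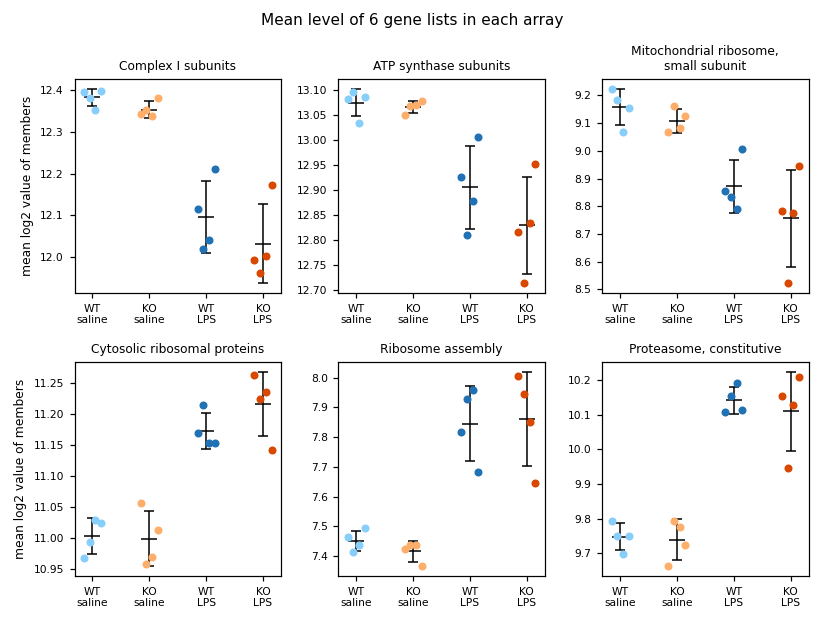
Mean log2 level of the measured members of 6 gene lists (vertical axis) in each of the 16 arrays, by group, with the group mean and SD (bars, n = 4). Complex I, ATP synthase and the small mitochondrial ribosomal subunit lie lower in all LPS arrays than in all saline arrays, and cytosolic ribosomal proteins, ribosome assembly factors and the proteasome lie higher in all of them.

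Pathways that feed the chain fell in part. In the tricarboxylic acid cycle 14 of 22 genes fell and 1 rose, with a median of -0.30. Ogdh, the first component of the 2-oxoglutarate dehydrogenase complex, ranged from 12.33 to 12.52 in the 8 saline arrays (median 12.41) and 11.74 to 12.20 in the 8 LPS arrays (median 11.82), without overlap, and fell by 0.53 (SE 0.0591, adjusted p = 1.28e-06), while its partner Dlst fell by 0.57 (SE 0.0760, adjusted p = 1.04e-05). The single rise was gained: Pcx, pyruvate carboxylase, which refills oxaloacetate, ranged from 6.24 to 6.82 in the 8 saline arrays (median 6.58) and 6.59 to 7.30 in the 8 LPS arrays (median 6.93), with 3 LPS arrays inside the saline range, and rose by 0.34 (SE 0.0906, adjusted p = 0.00607). In the breakdown of branched-chain amino acids and ketone bodies 13 of 23 genes fell and 0 rose. Bckdha, a subunit of the branched-chain ketoacid dehydrogenase, was among the gained falls with -0.29 (SE 0.0847, adjusted p = 0.0122), although the fourth wild-type LPS array lay above every saline array. Enzymes that make coenzyme Q, haem and iron-sulphur clusters were lower in 17 of 27 cases and higher in 0. Their median of -0.49 was the lowest of the metabolic lists. Coq10a fell by 0.80 (SE 0.107, adjusted p = 1.16e-05).

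In fatty acid oxidation 4 of 25 genes were higher and 5 lower. This share was near the 35.0% of all genes and below the 49.1% of those above the median level. The number lower was 10 without the fourth wild-type LPS array and 9 without the fourth knockout LPS array. After centring of the arrays 7 were higher and 5 lower. Hadh, a dehydrogenase of short chains, fell by 0.34 (SE 0.0583, adjusted p = 1.54e-04), and the thioesterase Acot13 fell by 0.56 (SE 0.0762, adjusted p = 1.34e-05). Eci2, an isomerase for unsaturated chains, rose by 0.51 (SE 0.0907, adjusted p = 2.14e-04). In cholesterol synthesis 2 genes rose and 3 fell of 22 (22.7%, below the share of all genes), and without the fourth wild-type LPS array 4 rose and 5 fell. Glycolysis had 5 higher and 17 lower of 30. Aldoa, the muscle aldolase, was gained: it ranged from 13.30 to 13.38 in the 8 saline arrays (median 13.32) and 13.04 to 13.36 in the 8 LPS arrays (median 13.14), the fourth wild-type LPS array alone lying inside the saline range, and fell by 0.16 (SE 0.0430, adjusted p = 0.00744).

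Genes of contraction fell more often than they rose, and by very different amounts. In the sarcomere 18 of 24 genes fell and 1 rose. Tpm1, the tropomyosin of heart muscle, ranged from 13.94 to 14.05 in the 8 saline arrays (median 13.98) and 13.78 to 13.87 in the 8 LPS arrays (median 13.84) and fell by 0.15 (SE 0.0290, adjusted p = 5.97e-04), and Myl2, the ventricular regulatory light chain, fell by 0.13 (SE 0.0283, adjusted p = 0.00166), both without overlap. Myl2 was not called after centring of the arrays. The mean of all probe sets of Tpm1 fell by 0.39, and its other 3 fell by 0.78 and 0.37 (called) and changed by -0.28 (not called). Actn2, the alpha-actinin of the Z-disc, was gained with -0.24 (SE 0.0711, adjusted p = 0.0136). The fourth wild-type LPS and the second knockout LPS array lay within its saline range. At the Z-disc and intercalated disc 6 genes rose and 10 fell of 28 (57.1%), and in the dystrophin and laminin complex 8 rose and 13 fell of 25 (84.0%). Over all genes 35.0% were called, and 49.1% of those above the median level. Lama4, a laminin chain of vessel and muscle basement membranes, was gained with -0.54 (SE 0.136, adjusted p = 0.00437). In Lama4 the fourth wild-type LPS array lay above all saline arrays and the other 7 LPS arrays lay below them.

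Calcium cycling genes fell in 18 of 25 cases, and 1 rose. Casq2, the calcium buffer of the sarcoplasmic reticulum, ranged from 11.96 to 12.19 in the 8 saline arrays (median 12.08) and 10.85 to 11.27 in the 8 LPS arrays (median 11.10), without overlap, and fell by 0.99 (SE 0.0630, adjusted p = 1.21e-09), the smallest p of any moderate fall. Srl, sarcalumenin, another calcium-binding protein of that store, fell by 0.93 (SE 0.0724, adjusted p = 1.64e-08). Atp2a2 (SERCA2), the calcium pump of that store, ranged from 14.13 to 14.25 in the 8 saline arrays (median 14.21) and 13.97 to 14.10 in the 8 LPS arrays (median 14.04) and fell by 0.16 (SE 0.0272, adjusted p = 1.21e-04), also without overlap. The size depended on the probe set: the other 5 for Atp2a2 fell by 0.30 to 0.77, each called, and the mean of all its probe sets fell by 0.50. Camk2g, an isoform of calmodulin-dependent kinase II, was gained with -0.34 (SE 0.104, adjusted p = 0.0161), with 7 of 8 LPS arrays below the saline range and the fourth wild-type LPS array above it. Of 23 potassium, sodium and pacemaker channel genes 15 fell and 2 rose, or 1 rose when the third or the fourth wild-type saline, first or second wild-type LPS, the first or the third knockout saline, or the third or the fourth knockout LPS array was left out. Kcnh2, the channel of the rapid delayed rectifier current, had one of the larger gained changes. It ranged from 8.77 to 9.20 in the 8 saline arrays (median 8.99) and 7.22 to 8.81 in the 8 LPS arrays (median 8.39) and fell by 0.77 (SE 0.206, adjusted p = 0.00663), with -0.81 in wild-type hearts (adjusted p = 0.0663) and -0.72 in knockout hearts (adjusted p = 0.0881).

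The cardiomyocyte markers fell in 8 of 10 cases with a median of -0.17, and in 3 cases after each array was centred on its median. The part of this general shift in the falls of mitochondrial and contractile genes was not tested.

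Against these falls, the machinery for making and removing proteins rose. Of 40 genes of the constitutive proteasome, which degrades ubiquitin-tagged proteins, 30 rose and 1 fell. Their mean was 9.66 to 9.79 in the saline arrays (median 9.75) and 9.95 to 10.21 in the LPS arrays (median 10.14), without overlap, and the median change was 0.42. Psmd11, a lid subunit of the regulatory particle, ranged from 10.90 to 11.03 in the 8 saline arrays (median 11.00) and 11.60 to 11.96 in the 8 LPS arrays (median 11.78) and rose by 0.79 (SE 0.0566, adjusted p = 5.73e-09). The core subunit Psma7 rose by 0.75 (SE 0.0551, adjusted p = 8.17e-09), and both were among the 5 moderate rises of smallest p. Psmd8, another lid subunit, was gained: it ranged from 9.08 to 9.65 in the 8 saline arrays (median 9.49) and 9.52 to 10.04 in the 8 LPS arrays (median 9.77), with 2 LPS arrays inside the saline range, and rose by 0.36 (SE 0.0979, adjusted p = 0.00791). Not every subunit took part. Psmc3, an ATPase of the regulatory particle, changed by 0.12 (95% interval 0.0051 to 0.24), and Psmb6, a catalytic core subunit that the immunoproteasome replaces, by -0.0057 (95% interval -0.11 to 0.10). Neither was called, but Psmc3 was after centring of the arrays, at 0.16.

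Ribosome assembly in the nucleolus rose almost as broadly, with 41 of 58 genes higher, 1 lower and a median of 0.37. Nhp2, a component of the H/ACA particles that guide pseudouridylation of ribosomal RNA, ranged from 7.60 to 8.02 in the 8 saline arrays (median 7.90) and 8.38 to 9.13 in the 8 LPS arrays (median 8.89), without overlap, and rose by 0.97 (SE 0.107, adjusted p = 1.23e-06). The single fall was Nop10, a component of those same particles, which ranged from 10.96 to 11.33 in the 8 saline arrays (median 11.11) and 10.86 to 11.04 in the 8 LPS arrays (median 10.92), with 2 LPS arrays inside the saline range, and fell by 0.20 (SE 0.0530, adjusted p = 0.00671). Both genes are parts of 1 complex and moved in opposite directions. Polr1b, the second-largest subunit of RNA polymerase I, rose by 0.27 (SE 0.0750, adjusted p = 0.00899), and the helicase Ddx10 rose by 0.37 (SE 0.0996, adjusted p = 0.00698). These last 3 were gained.

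The cytosolic ribosomal proteins themselves rose by little and in step. Of 45 measured, 26 rose and 0 fell, 43 changes were positive, and the median was 0.15. Wild-type hearts alone called 11 and knockout hearts 16, and 8 of the 26 were gained. The mean over the list was 10.96 to 11.06 in the saline arrays (median 11.00) and 11.14 to 11.26 in the LPS arrays (median 11.19), without overlap. In 25 of the 45 the 95% interval lay within a change of 1.2-fold, 7 of them called. Rps25 had the largest change of the list: it ranged from 6.11 to 6.34 in the 8 saline arrays (median 6.26) and 7.01 to 7.69 in the 8 LPS arrays (median 7.11), without overlap, and rose by 0.93 (SE 0.0875, adjusted p = 1.81e-07). Rpl27 ranged from 10.89 to 11.05 in the 8 saline arrays (median 11.01) and 11.05 to 11.21 in the 8 LPS arrays (median 11.14), without overlap, and rose by 0.15 (SE 0.0455, adjusted p = 0.0171), with 0.13 in wild-type hearts (adjusted p = 0.198) and 0.16 in knockout hearts (adjusted p = 0.0812). Rps27, also without overlap, rose by 0.25 (SE 0.0726, adjusted p = 0.0107), at levels of 4.88 to 5.58 that are close to the median of all probe sets (4.64). Rpl14 rose by 0.36 (SE 0.0931, adjusted p = 0.00555), Rpl37 rose by 0.23 (SE 0.0695, adjusted p = 0.0136) and Rpl7 rose by 0.15 (SE 0.0473, adjusted p = 0.0217). Rps29 was bounded most closely, with a change of 0.019 (95% interval -0.053 to 0.091). Ribosomal protein genes have many near-identical processed copies in the genome, and probes may also report these.

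Some lists that fell and some that rose held the ETS letters, 1 of 9 promoter motifs searched, more often than promoters in general. Promoters were taken as the 250 bases before a RefSeq start site (GRCm38.p6, 18009 promoters of 14368 of the genes tested). They were searched on both strands for 9 motifs: the ETS letters ACTTCCGG, NRF1, ERR TCAAGGTCA, CRE TGACGTCA, the E-box CACGTG, the D-box TTATGNAA, the ISRE, ATF4 TGATGNAAT and ARE TGACNNNGC. 1 stretch could count for several motifs. The ETS letters stood in 4.32% of all promoters. They stood in 13.3% and 14.8% of promoters of the large and small mitochondrial ribosomal subunits and in 17.2% of those of mitochondrial import, lists that mostly fell. They also stood in 17.1% of proteasome, 17.0% of cytosolic ribosomal protein and 12.1% of ribosome assembly promoters, lists that mostly rose. Among other lists that fell, 2 of 9 complex II and III promoters held them (22.2%), 4 of 33 of the assembly factors (12.1%) and 1 of 18 of ATP synthase (5.56%). Further lists that fell held none, with 0 of 33 complex I promoters, 0 of 10 of complex IV, 0 of 26 of the tricarboxylic acid cycle, 0 of 28 of the sarcomere and 0 of 25 of calcium cycling. The endoplasmic reticulum list, which rose, had 4.55%. Lists whose share of called genes was nearer to that of all genes could hold them as often, with 13.3% of spliceosome and 11.1% of mitochondrial DNA and translation promoters. Over all genes the share was 6.14% for those that rose and 3.28% for those that fell. The letters are a description and not a shown binding site, and these lists hold few promoters each. Other motifs searched also stood above their share of all promoters in some lists and not in others. The E-box stood in 27.8% of ATP synthase promoters and in 0 of 10 of complex IV (7.39% of all promoters). NRF1 letters stood in 6.67% of promoters of the large mitochondrial ribosomal subunit and in 0 of 27 of the small (1.23% of all promoters).

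To show the letters in both directions of change, 100 bases are given for 5 called genes, from the RefSeq promoter table, 5′ to 3′ on the gene's strand, with the ETS letters or their reverse complement in capitals. Mrpl18 (minus strand, chr17:12916242-12916341; -0.90 (SE 0.0911, adjusted p = 4.64e-07)) and Mtx2, a component of the outer membrane sorting machinery (plus strand, chr2:74825712-74825811; -0.60 (SE 0.165, adjusted p = 0.00793)), fell. Rps25 (plus strand, chr9:44407595-44407694), Pomp, the proteasome maturation protein (plus strand, chr5:147860528-147860627; 0.61 (SE 0.0492, adjusted p = 2.51e-08)), and Nhp2 (plus strand, chr11:51619673-51619772) rose. The letters begin 25 bases before the start site in Mtx2, 73 in Rps25, 50 in Pomp, 23 in Nhp2 and 240 in Mrpl18.
Mrpl18: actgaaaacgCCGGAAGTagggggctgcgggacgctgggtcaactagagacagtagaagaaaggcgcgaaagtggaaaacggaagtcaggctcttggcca
Mtx2: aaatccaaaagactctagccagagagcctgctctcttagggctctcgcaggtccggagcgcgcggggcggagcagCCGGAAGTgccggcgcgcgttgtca
Rps25: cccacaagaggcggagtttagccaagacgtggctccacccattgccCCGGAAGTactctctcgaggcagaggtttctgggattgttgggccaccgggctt
Pomp: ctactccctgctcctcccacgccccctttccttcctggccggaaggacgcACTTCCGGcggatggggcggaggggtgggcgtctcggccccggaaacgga
Nhp2: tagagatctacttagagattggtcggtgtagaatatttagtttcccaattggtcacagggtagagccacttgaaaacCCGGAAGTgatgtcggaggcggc

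ISRE letters, by comparison, stood in 2.62% of all promoters, 3.99% of those of genes that rose, 3.25% of those of gained genes that rose and 7.69% of those of the interferon list.

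Folding and secretion of proteins followed the rise. In the endoplasmic reticulum 31 of 51 genes rose, 0 fell, and the median was 0.30, with 16 called in wild-type hearts alone, 26 in knockout hearts and 6 gained. Of these 6, 3 are given here. Ssr4, a subunit of the translocon-associated complex, ranged from 9.14 to 9.48 in the 8 saline arrays (median 9.38) and 9.29 to 9.84 in the 8 LPS arrays (median 9.68), the second knockout LPS array alone lying inside the saline range, and rose by 0.31 (SE 0.0806, adjusted p = 0.00518). Srp9, which binds the Alu domain of the signal recognition particle RNA, rose by 0.23 (SE 0.0616, adjusted p = 0.00582). Derl2, which helps to retrotranslocate misfolded proteins, rose by 0.36 (SE 0.114, adjusted p = 0.0202), although the second knockout LPS array lay below every saline array. Among coat proteins and Golgi transport 16 of 44 genes rose and 2 fell (40.9%), and 1 fell after centring and in 8 of the 16 fits that left out 1 array. Golgb1, the tether giantin, rose by 0.29 (SE 0.0749, adjusted p = 0.00492), and Sec24b, a cargo adaptor of COPII vesicles, rose by 0.36 (SE 0.0975, adjusted p = 0.00708). For Golgb1 and Sec24b the fourth knockout LPS array alone lay within the saline range.

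Aminoacyl-tRNA synthetases and amino acid synthesis genes were higher in 24 of 36 cases and lower in 1. Yars, which charges tyrosine, ranged from 7.42 to 7.69 in the 8 saline arrays (median 7.59) and 7.67 to 8.13 in the 8 LPS arrays (median 7.84) and rose by 0.28 (SE 0.0740, adjusted p = 0.00603). Lars, which charges leucine, rose by 0.21 (SE 0.0638, adjusted p = 0.0149), and Shmt2, the mitochondrial serine hydroxymethyltransferase, rose by 0.24 (SE 0.0668, adjusted p = 0.00830). All 3 were gained. Translation factors were higher in 19 of 42 cases and lower in 4, or lower in 2 without the first and the fourth wild-type saline arrays.

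Lysosome and autophagy genes went both ways, with 13 higher and 11 lower of 50 (48.0%). Over all genes 35.0% were called, and 49.1% of those above the median level. The number lower was 7 without the third knockout saline array, also 7 without the first and the fourth wild-type saline arrays, and 18 without the fourth wild-type and second knockout LPS arrays. Ctsh, cathepsin H, ranged from 8.06 to 8.84 in the 8 saline arrays (median 8.39) and 7.19 to 8.32 in the 8 LPS arrays (median 7.98), with 3 LPS arrays inside the saline range, and fell by 0.53 (SE 0.147, adjusted p = 0.00828). Atp6v0d1, a subunit of the proton pump that acidifies lysosomes, rose by 0.22 (SE 0.0682, adjusted p = 0.0158). Both were gained. Cytosolic chaperones had 9 higher and 8 lower of 36 (47.2%).

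Nuclear genes went both ways. Of 65 chromatin modifiers 8 rose and 13 fell (32.3%), and of 53 spliceosome genes 9 rose and 12 fell (39.6%), against 35.0% of all genes and 49.1% of those above the median level, or 18 rose without the fourth wild-type LPS array. The 8 chromatin rises were 4 without the first and the fourth wild-type saline arrays. The core of the small nuclear particles fell in part: Snrpd3, one of the Sm ring proteins, ranged from 9.11 to 9.33 in the 8 saline arrays and 8.47 to 9.08 in the 8 LPS arrays, without overlap, and fell by 0.29 (SE 0.0894, adjusted p = 0.0158). Snrpf, another protein of that ring, fell by 0.24 (SE 0.0759, adjusted p = 0.0214). Srsf10, a splicing regulator, rose by 0.34 (SE 0.102, adjusted p = 0.0142). Among the chromatin genes Kat2a, an acetyltransferase of histone H3, rose by 0.29 (SE 0.0881, adjusted p = 0.0150), Dot1l, a histone H3 methyltransferase, fell by 0.39 (SE 0.122, adjusted p = 0.0174), and Ehmt1, another, fell by 0.24 (SE 0.0759, adjusted p = 0.0185). These 6 genes were gained. In Dot1l the second knockout LPS array lay above all saline arrays. Of 21 core clock genes and outputs 3 rose and 8 fell (52.4%).

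Signalling genes showed both directions too. Of 36 MAP kinase pathway genes 5 rose and 11 fell (44.4%), against 35.0% of all genes and 49.1% of those above the median level. The number that fell was 17 without the fourth wild-type and second knockout LPS arrays. Map3k7 (TAK1), the kinase that links Toll-like receptor and interleukin-1 receptor complexes to NF-kB, ranged from 8.61 to 8.93 in the 8 saline arrays (median 8.77) and 7.26 to 8.55 in the 8 LPS arrays (median 8.40). All LPS arrays lay below the saline arrays, and Map3k7 fell by 0.54 (SE 0.151, adjusted p = 0.00822), with -0.61 in wild-type hearts (adjusted p = 0.0592) and -0.48 in knockout hearts (adjusted p = 0.122). Its partner Tab1 fell by 0.27 (SE 0.0815, adjusted p = 0.0142), the fourth wild-type LPS array lying inside the saline range. Both were gained, within an interferon and innate sensing list whose other members mostly rose (32 higher and 3 lower of 47). Irf2, a repressor and activator of interferon-responsive genes, was a gained rise with 0.44 (SE 0.117, adjusted p = 0.00653). For TGF-beta and BMP signalling the counts were 10 higher and 10 lower of 40 (50.0%). Smad3, which carries the TGF-beta signal to the nucleus, rose by 0.24 (SE 0.0749, adjusted p = 0.0171). Wnt, Notch and Hippo genes had 4 higher and 16 lower of 46 (43.5%), or 7 higher without the fourth wild-type LPS array. The receptor Fzd8 fell by 0.32 (SE 0.0949, adjusted p = 0.0138), and Tead4, the transcription factor at the end of the Hippo pathway, rose by 0.33 (SE 0.0964, adjusted p = 0.0114). Insulin, AMPK and mTOR signalling had 3 higher and 8 lower of 33 (33.3%), and 15 lower without the fourth wild-type LPS array.

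In 16 gained genes the 8 LPS arrays all lay on 1 side of the 8 saline arrays, 7 higher and 9 lower. Over all genes 13.3% were apart in this way, 6.21% higher and 7.07% lower. The largest fall was in Dgat2, the enzyme of the last step of triglyceride synthesis, which ranged from 9.99 to 10.18 in the 8 saline arrays (median 10.07) and 8.53 to 9.89 in the 8 LPS arrays (median 9.57) and fell by 0.69 (SE 0.174, adjusted p = 0.00445), with -0.69 in wild-type hearts (adjusted p = 0.0632) and -0.68 in knockout hearts (adjusted p = 0.0591). The LPS arrays were spread far more widely than the saline arrays. Another Dgat2 probe set (mean level 8.59) changed by -0.45 and was not called. Kif21a, a kinesin motor, fell by 0.60 (SE 0.197, adjusted p = 0.0241). Arhgap5, a GTPase-activating protein, fell by 0.46 (SE 0.150, adjusted p = 0.0218), and Cpsf6, a factor of 3′ end cleavage, fell by 0.34 (SE 0.110, adjusted p = 0.0206). Another Cpsf6 probe set (mean level 7.54) rose by 0.56 (adjusted p = 6.00e-05), so that the direction of this gene is uncertain. Smaller falls were those of Mrfap1 with -0.18 (SE 0.0508, adjusted p = 0.00789), of Hnrnpc, an RNA-packaging protein of the nucleus, with -0.16 (SE 0.0490, adjusted p = 0.0158), and of Chchd1. Chchd1, a protein of the small mitochondrial ribosomal subunit that the mitochondrial list above did not hold, ranged from 10.31 to 10.46 in the 8 saline arrays (median 10.40) and 10.02 to 10.31 in the 8 LPS arrays (median 10.24) and fell by 0.19 (SE 0.0596, adjusted p = 0.0209). Map3k7 and Snrpd3 are described above.

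The 7 rises included Rps27 and Rpl27. Mpv17l2, an inner membrane protein needed for the assembly of mitochondrial ribosomes, ranged from 7.49 to 7.81 in the 8 saline arrays (median 7.75) and 7.85 to 8.18 in the 8 LPS arrays (median 7.91) and rose by 0.27 (SE 0.0740, adjusted p = 0.00799), in the direction opposite to most mitochondrial ribosomal proteins. Anapc7, a subunit of the anaphase-promoting complex, ranged from 8.76 to 8.95 in the 8 saline arrays (median 8.83) and 8.97 to 9.39 in the 8 LPS arrays (median 9.01) and rose by 0.23 (SE 0.0713, adjusted p = 0.0159). Prkrip1, a splicing-associated protein that binds the kinase PKR, rose by 0.29 (SE 0.0857, adjusted p = 0.0123), and Tbc1d22a, a GTPase-activating protein for Rab, rose by 0.24 (SE 0.0681, adjusted p = 0.0107). Reg2, a secreted lectin of the Reg family, ranged from 4.67 to 4.91 in the 8 saline arrays (median 4.85) and 4.95 to 5.20 in the 8 LPS arrays (median 4.99) and rose by 0.20 (SE 0.0602, adjusted p = 0.0147), near the level of the median probe set (4.64).

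**Figure D4:**
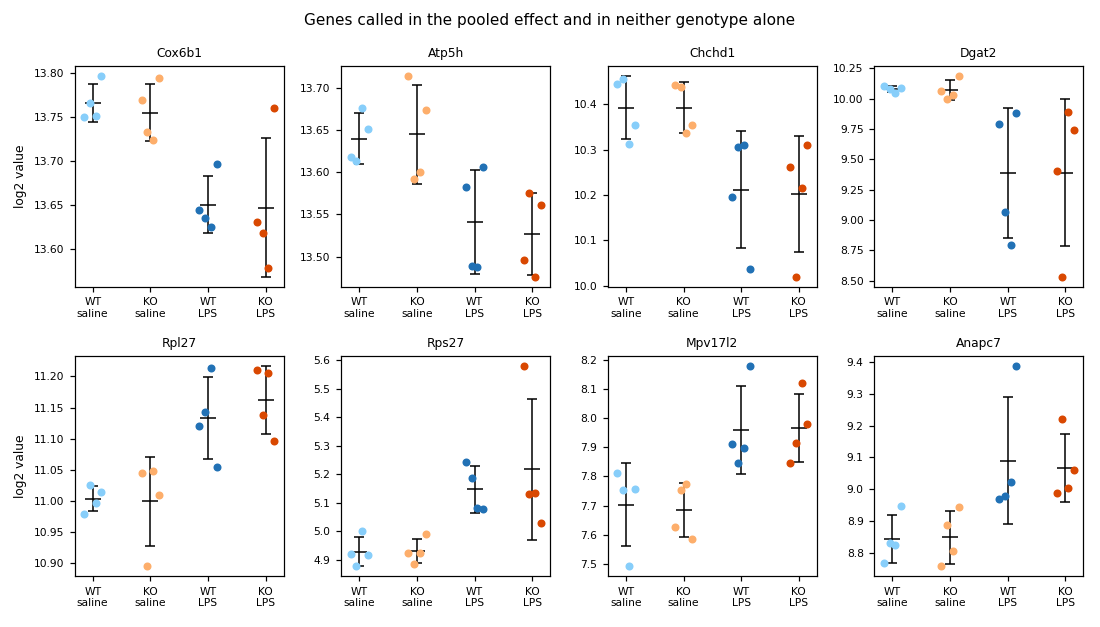
Log2 level (vertical axis) in each of the 16 arrays of 8 genes called over both genotypes and in neither alone, with group mean and SD (bars, n = 4). Cox6b1, Atp5h, Chchd1 and Dgat2 are lower after LPS and the other 4 higher. In Cox6b1 and Atp5h 1 LPS array reaches into the saline range, and in the other 6 genes 0 do.

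Pooling also removed calls. A total of 372 genes were called in 1 genotype and not over both, 113 of them in the wild type and 259 in the knockout, and in 166 of them the genotypes had opposite signs. For Nectin3, a cell adhesion protein, the changes were -0.86 in wild-type hearts (adjusted p = 3.97e-04) and 0.13 in knockout hearts (adjusted p = 0.563). For Txndc11, a thioredoxin-like protein of the endoplasmic reticulum, they were -0.19 in wild-type hearts (adjusted p = 0.394) and 0.76 in knockout hearts (adjusted p = 4.57e-04). Crebrf, a regulator of the CREB3 factors, had 0.14 in wild-type hearts (adjusted p = 0.482) and -0.60 in knockout hearts (adjusted p = 0.00124). In these 3 the interaction was not called after adjustment over all genes, so that a difference between the genotypes was not shown. Taken as the mean of both single-genotype changes, with the spread of the 4-group model, the pooled changes of all 3 were called. Another Crebrf probe set (mean level 7.21) had a pooled change of 0.41 and was called, opposite in sign to the one used.

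The moderate changes of smallest p were called in each genotype too. Ninj1, a plasma membrane protein that ruptures membranes in lytic cell death, ranged from 9.35 to 9.66 in the 8 saline arrays (median 9.42) and 10.23 to 10.55 in the 8 LPS arrays (median 10.37) and rose by 0.94 (SE 0.0632, adjusted p = 2.44e-09). Clu, the extracellular chaperone clusterin, rose by 0.75 (SE 0.0546, adjusted p = 7.15e-09), and Grn, progranulin, rose by 0.89 (SE 0.0665, adjusted p = 1.11e-08). Falls of that rank were those of Casq2 and Srl, of Epyc, a small leucine-rich proteoglycan, with -0.84 (SE 0.0636, adjusted p = 1.14e-08), of Nnat, neuronatin, with -0.96 (SE 0.0753, adjusted p = 1.82e-08), and of Zfp715, a zinc finger protein, with -0.97 (SE 0.0764, adjusted p = 1.88e-08).

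How the gained genes read on a second probe set, which their selection did not use, could be described for 672 of them with 1257 further probe sets on the same arrays. Of these, 922 (73.3%) had the sign of the probe set used, and 546 of 649 (84.1%) among probe sets above the median level. For genes called within a genotype the share was 86.1% at any level, for genes not called 60.9%, and for all genes 70.8%. The gained genes thus lay between the genes called by smaller groups and those not called. Of the 1257 probe sets, 291 were themselves called in the same direction and 46 in the opposite one.

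Markers of other cell types moved beside these changes. Smooth muscle and pericyte markers fell in 8 of 10 cases with a median of -1.02, their mean being 9.08 to 9.50 in the saline arrays (median 9.37) and 7.90 to 8.66 in the LPS arrays (median 8.40). Neutrophil markers rose in 5 of 10, their mean being 3.91 to 4.07 in the saline arrays (median 4.03) and 5.21 to 5.94 in the LPS arrays (median 5.67). The primary granule markers Mpo and Elane changed by 0.084 (95% interval -0.037 to 0.21) and -0.017 (95% interval -0.17 to 0.13). In 7 of the 10 neutrophil markers, Mpo and Elane among them, the mean level lay below the median probe set (4.64), where a missing change says little. Endothelial markers fell in 4 of 10 and rose in 1 (50.0% called), and fibroblast markers fell in 4 of 9 (44.4%). Both shares lay near the 49.1% of genes above the median level. Col1a2, a fibroblast collagen chain, was gained with -0.80 (SE 0.230, adjusted p = 0.0109), and 7 of its LPS arrays lay below the saline range and the fourth wild-type one above it. Other Col1a2 probe sets changed by 0.0325 (mean level 8.40, not called) and 0.26 (mean level 3.21, called), so that the direction of this gene is uncertain. B cell markers fell in 3 of 5, with Ighm, the heavy chain of immunoglobulin M, at -1.57 (SE 0.428, adjusted p = 0.00761) and Cd79a, a chain of the B cell receptor, at -0.18 (SE 0.0545, adjusted p = 0.0152), both gained. In 4 of these 5 markers, Cd79a among them, the mean level lay below the median probe set. With only genes above that level 1 B cell marker was called lower. Adipocyte markers fell in 3 of 5, their mean being 6.32 to 7.34 in the saline arrays and 5.52 to 6.23 in the LPS arrays. Macrophage and monocyte markers rose in 2 of 10 and fell in 3 (50.0%, near that same share). Atrium markers fell in 5 of 5 with a median of -0.90, their mean being 11.13 to 11.96 in the saline arrays (median 11.80) and 10.66 to 11.20 in the LPS arrays (median 10.86), in tissue labelled as ventricular. T and NK cell markers rose in 2 of 8, or in 1 in 6 of the 16 fits that left out 1 array. Erythroid, platelet, skeletal muscle and Schwann cell markers fell in 1 of 4, 1 of 5, 2 of 8 and 1 of 3. Each of these shares lay below the 35.0% of all genes. Skeletal muscle transcripts were high in the first and the fourth wild-type saline arrays. The median change of these markers was -0.097 among knockouts, where the wild type had -1.26. Their number called lower was 1 to 3 over the alternatives, so these falls are not read as an LPS effect on a cell type. The part of these cell types and of atrial tissue in the moderate changes was not tested.

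The fourth wild-type LPS array weighed on the gained genes. It was the LPS array nearest to the saline side in 442 of the 1205 (36.7%), against 52 to 183 for each of the other 7 LPS arrays, and it did not pass the saline range in 672 (55.8%). In genes called within a genotype it was nearest in 44.9%. Without that array and the second knockout LPS array 7435 genes were called. Of the 1205, 1007 were then still called over both genotypes, but 357 were called in neither genotype alone. Without the first and the fourth wild-type saline arrays 525 of the 1205 stayed called. Of the gained genes 549 (45.6%) were called in each of the 16 fits that left out 1 array, against 94.8% of the other called genes. The gained genes named above were among those 549 and were picked after their values had been seen, other than the 16 whose groups were apart. Centring ended the calls of Snrpf, Cpsf6, Hnrnpc, Chchd1 and Cd79a besides those of the 3 subunits above. The mean of all probe sets of a gene ended those of Atp5a1, Timm9, Srp9, Golgb1, Srsf10, Tab1, Smad3, Cpsf6, Anapc7, Prkrip1 and Col1a2, all with the same sign. That mean also made the called changes smaller by over 1.5 times in Uqcc1 (-0.45), Tsfm (-0.29), Dlst (-0.27), Coq10a (-0.27), Psmd11 (0.48), Ssr4 (0.17), Map3k7 (-0.19), Kif21a (-0.32), Tbc1d22a (0.15) and Ighm (-0.31), and larger in Rpl27 (0.22). Without the fourth wild-type and second knockout LPS arrays, the falls of Snrpd3 (-0.17), Map3k7 (-0.33), Kif21a (-0.29), Arhgap5 (-0.24) and Cpsf6 (-0.18) and the rise of Prkrip1 (0.19) were smaller to that extent. Without the first and the fourth wild-type saline arrays Atp5a1, Grpel2, Actn2, Rpl27, Rpl7, Snrpd3, Snrpf, Kat2a, Dot1l, Kif21a, Arhgap5, Cpsf6, Hnrnpc and Chchd1 were not called, again with the same sign.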

How the data were processed

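Gene expression was measured on 16 Affymetrix arrays, 1 per sample, in 4 groups of 4. The authors deposited 1 log2 value per probe set and array, made with RMA (background correction, quantile normalization and probe summary), per the submitters' processing notes. Which RMA software was run is not given in the sources used here. Quantile normalization gives all arrays nearly the same distribution (array medians 4.62 to 4.67 on the log2 scale), so a shift of all transcripts together cannot be seen. Precision is limited by the number of arrays.

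Of 45101 probe sets, 64 controls were left out, 34945 carried 1 gene symbol, 932 several and 9160 none in the platform annotation used. Each gene was represented by its brightest probe set on average (9010 genes had several), which left 18193 genes. Of the single-gene probe sets, 34741 matched the RefSeq gene table of GRCm38.p6 and 204 did not. Genotype rests on the labels.

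The pooled effect is the LPS term of an additive model of treatment and genotype (limma 3.58.1 in R 4.3.3, empirical Bayes with an intensity trend, 13 residual degrees of freedom). Single-genotype changes and the interaction come from a 4-group model on the same arrays (12 residual degrees of freedom). Tests were two-sided, and the procedure was tested on simulated data. P-values were adjusted over all 18193 genes. Errors with changes are limma standard errors. The labels do not say whether the samples of a group were processed apart, and p-values measure the spread between these samples.

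Members and gene lists were chosen with earlier results of these data known, so lists are described by counts and medians and not tested. The rule for named genes took gained genes whose groups were apart (up to 10 per direction), the 5 moderate rises and 5 falls of smallest p, up to 4 called and 2 bounded members per list, the 5 genes of smallest p called in 1 genotype and not over both, and cell type markers. The text names part of these. Other gained list members, Pomp and Mtx2 were picked with their values in view. Alternatives covered the model terms, variance shrinkage, array weights, centring, probe set choice, a level filter, a minimum change and left-out arrays.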

Additional observations from a re-analysis of the deposited data

Results flagged for a closer look

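Over the 113 genes named in the report, 36 of 452 sets of 4 arrays (7.96%) had 1 array far from the other 3 by Dixon's ratio, the gap to the nearest array over the whole range, where chance alone gives about 1 in 20. The fourth wild-type LPS array made 9 of them and the second knockout LPS array 6. In the fourth wild-type LPS array Camk2g (0.948), Polr1b (0.838), Atp6v0d1 (0.944), Tab1 (0.876), Anapc7 (0.869) and Crebrf (0.898) were far above the rest of the group and Rpl37 (0.887), Map3k7 (0.906) and Cpsf6 (0.890) far below. In the second knockout LPS array Mtx2 (0.841), Ssr4 (0.875), Snrpd3 (0.879), Map3k7 (0.909), Arhgap5 (0.963) and Cpsf6 (0.889) were far below. Among the other LPS arrays, Mrpl18 (0.921) and Reg2 (0.860) were high in the first wild-type array, Mpo (0.875) in the second wild-type array and Psmb6 (0.889) in the fourth knockout array.

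Among knockout saline arrays, Lama4 (0.931) was high and Timm9 (0.958) low in the first, and Atp2a2 (0.962), Camk2g (0.921), Tead4 (0.944) and Tbc1d22a (0.834) were low in the second. Gfer (0.923), Psma7 (0.861) and Hnrnpc (0.914) were high in the third, Ndufs5 (0.923), Snrpd3 (0.850) and Tab1 (0.985) high in the fourth, and Polr1b (0.839) low there. Among wild-type saline arrays, Ndufb10 (0.911) was high and Cox7c (0.851) low in the first, Nop10 (0.842) was high in the second and Shmt2 (0.908) in the fourth. Each of the called genes among them stayed called in every fit that left out 1 array. For the gained genes this follows from the naming, since only ones that stayed called were named, so it does not measure the weight of these arrays. Over all gained genes 549 of 1205 (45.6%) stayed called.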

How the results depend on the processing

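The number of genes called over both genotypes was 5920 to 7151 when 1 array was left out, the highest without the fourth wild-type LPS array, and the interaction had 0 calls in each of these fits. Gained genes numbered 461 to 642 higher and 538 to 814 lower in them. A test against a minimum change of 1.2-fold left 2640 genes, 1187 higher and 1453 lower, since it asks for a larger change. With only genes above the median probe set, 2050 were bounded within 1.2-fold. In the fit of all genes, 2003 of the 7014 bounded genes had a mean above that level. Array weights gave 7429 calls. Centring each array on its median gave 3296 higher and 3156 lower and moved the median of all genes from -0.0083 to 0.034. Every other alternative kept the counts over all genes within 1.5 times, but not always the same gained genes. Of the 1205 gained genes, 1120 stayed called over both genotypes with array weights and 379 stayed gained. After centring these numbers were 936 and 720, and with the mean of all probe sets 883 and 680. The cause was not tested.

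With the replicate number as a replicate block, 6164 genes were called, 6072 of them shared with the 6364, and 1296 were gained, 912 of them shared. The numbers do not pair the samples: over 24 pairs of arrays with the same number, the correlation of deviations from group means ran from -0.27 to 0.33 (median -0.032), and 4 of 16 arrays were nearest to their own number. With 4 arrays a group, 0.563% of genes with a change under 0.25 were called in the wild type and 0.827% in the knockout.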
